A study of Mus musculus with 4 samples.

Results

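The genes described here encode the subunits of the mitochondrial respiratory chain and ATP synthase, complexes I to V, together with a few assembly factors that share their names. They were chosen by symbol alone, as genes whose symbol begins with Nduf, Uqcr, Atp5, or Cox followed by 4, 5, 6, 7 or 8, or is Sdha, Sdhb, Sdhc or Sdhd, with Cox6a2 left out. The rule found 89 genes of the 18193 measured, of which 80 are structural subunits and 9 are assembly or supercomplex factors. Of the 80 subunits, 34 belong to complex I, 4 to complex II, 8 to complex III, 17 to complex IV and 17 to complex V. Each gene is represented by 1 probe set, that with the highest mean over the 4 arrays.

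The groups were CLP_RAGhigh (2 arrays) and CLP_RAGlow (2 arrays), both fractions of the common lymphoid progenitor (CLP), a bone marrow cell that gives rise to B, T and natural killer cells. Both were taken from C57Bl6 mice aged 8 to 12 weeks, and RNA of 2000 sorted cells per array was amplified and hybridised to Affymetrix MOE430_2 arrays. The sample descriptions name the CLP_RAGhigh fraction by high GFP and the CLP_RAGlow fraction by low GFP, without describing the reporter allele that all these cells would carry. The replicates are labelled biological, with no word on separate animals or sorting runs, and p-values therefore reflect only the spread between these samples, which may be technical. All values are log2 of deposited RMA intensities, given as replicate 1 and replicate 2 of each group, and every difference is CLP_RAGhigh minus CLP_RAGlow on that log2 scale with the standard error (SE) of the limma fit. The number of arrays limits the precision, and an exact permutation test of 2 against 2 arrays cannot go below p = 0.333 (two-sided).

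Complexes I and II pass electrons from NADH and succinate to ubiquinone, complex III passes them on to cytochrome c, and complex IV reduces oxygen. Complexes I, III and IV pump protons across the inner membrane, and complex V, ATP synthase, uses the gradient to make ATP. Complex II is encoded wholly in the nucleus, whereas the other complexes also contain subunits encoded by mitochondrial DNA. Because the nuclear subunits are translated in the cytosol and the mitochondrial ones on mitochondrial ribosomes, both genomes contribute to each of those complexes. The transcription factors NRF1, YY1 and the ETS factor GABP are known to bind promoters of many nuclear genes of the chain.

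Exact NRF1 and YY1 motifs stood in a larger share of the promoters of the set than of all genes on the array, a description with no test. RefSeq promoter sequences on GRCm38.p6, running from 250 bases before to 50 bases after the transcription start, were matched by gene ID for 74 of the 89 genes. The NRF1 motif GCGCATGCG, read on both strands, was present in 9 of the 74 windows (12.2%), against 3.10% of 14368 array genes and 1.95% of 27025 genes in all. The YY1 motif AAGATGGC was present in 10 of 74 (13.5%), against 4.09% of array genes and 3.19% of all genes. Most of these YY1 matches began 10 to 38 bases after the start site, in the transcribed part of the window. The ETS motif CCGGAAGT was present in 5 of 74 (6.76%), close to the 6.65% of array genes, and in 4.31% of all genes. A match describes the letters in the window, and does not show that a factor binds there. The following stretches are matches lying wholly before the start site, shown because they hold the motifs of genes whose values follow; the capitals mark the motif on either strand, and overlapping copies where it matches on both strands.
Atp5g2 NRF1 match, chr15:102671065-102671104, minus strand: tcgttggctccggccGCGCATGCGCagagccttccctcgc
Cox6a1 NRF1 match, chr5:115349096-115349135, minus strand: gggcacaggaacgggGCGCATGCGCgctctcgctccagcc
Atp5j YY1 match, chr16:84835042-84835079, minus strand: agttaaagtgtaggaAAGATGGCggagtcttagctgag
Atp5h ETS match, chr11:115419936-115419973, minus strand: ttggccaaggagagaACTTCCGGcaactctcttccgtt
Of the 9 genes with the NRF1 motif, 6 were lower on average in CLP_RAGhigh cells and 3 were higher, with a median difference of -0.09. Of the matched genes without it 57 were lower and 8 higher, with a median of -0.27. All 10 genes with the YY1 motif had a lower mean in CLP_RAGhigh cells, with a median of -0.31. Without it 53 matched genes were lower and 11 higher, with a median of -0.24. All 5 genes with the ETS motif had a lower mean, with a median of -0.24, against 58 lower and 11 higher and a median of -0.25 without it.

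Most genes of the respiratory chain had a lower mean in CLP_RAGhigh cells, by a small amount, and no single gene passed the test. The mean was lower for 75 of the 89 genes and higher for 14, a share of 84.3% against a background of 49.4% of all genes. The median difference was -0.22, a fold of 0.858, with quartiles of -0.36 and -0.066, whereas the median over all 18193 genes was 0.0028 with quartiles of -0.20 and 0.20. Both CLP_RAGhigh arrays lay below both CLP_RAGlow arrays for 34 genes (38.2%, background 15.8%) and above them for 3 genes (3.37%, background 15.4%), and the groups overlapped for 52. An unadjusted limma p under 0.05 was reached by 8 genes with a lower mean (8.99%, background 2.94%) and by 0 with a higher mean (background 2.35%). With Benjamini-Hochberg adjustment over all genes, limma called 0 of the 89 genes and 0 of the 18193 genes (background 0%), and the smallest adjusted p in the set was 0.703.

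The set is made of abundant transcripts, and genes of like brightness did not lean the same way. Of the 89 genes, 84 had a mean in both groups above 3.88, the median over every probe set on the log2 scale, below which a group mean is called dim here. Among 3315 genes with a mean of at least 8, the median difference was -0.014, with 52.1% lower in CLP_RAGhigh cells and 19.5% wholly below. Taken over all 177 probe sets of the 89 genes, 139 (78.5%) had a lower mean, against 48.4% of the 34945 probe sets assigned to 1 gene. Of the 50 genes with several probe sets, 33 had all of them in 1 direction and 17 did not. Nuclear pseudogenes of respiratory genes are common. The chosen probe set of 54 genes ends in _x_at, _s_at or _a_at, which marks probes that can match several transcripts, for _a_at those of the same gene. Without such probe sets the median difference was -0.12, with 52 of 71 genes lower.

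**Figure D1:**
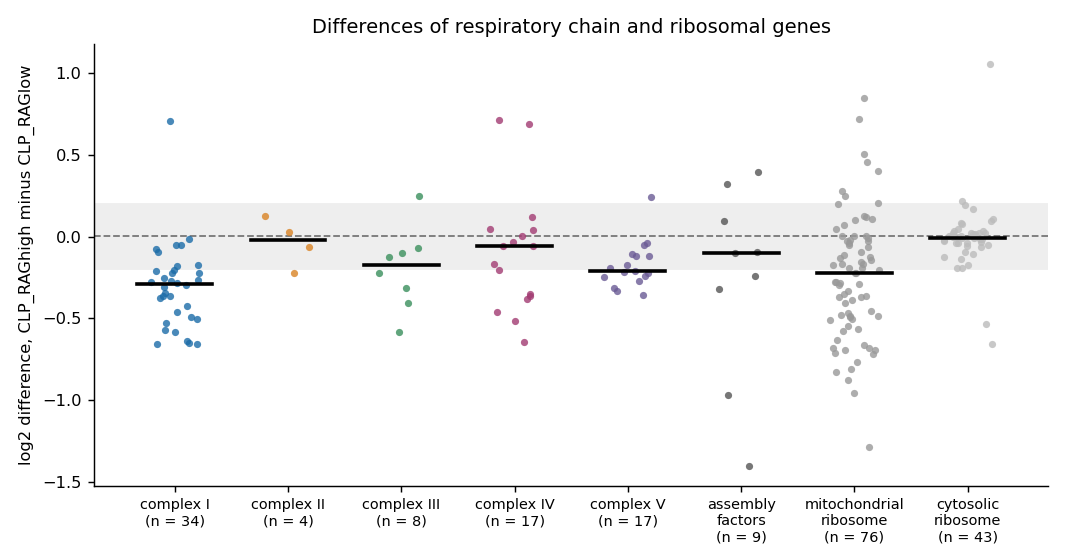
Difference in log2 intensity, CLP_RAGhigh minus CLP_RAGlow, on the vertical axis for every gene of each complex, of the assembly and supercomplex factors and of both ribosomes, with 1 point per gene, black bars at the medians, and a grey band and dashed line for the quartiles and median of all genes. Complex I has 33 of 34 points below 0, and the 4 points of complex II lie on both sides of 0.

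The size of the difference rested on the replicate 1 arrays. The median deviation of the 89 genes from their own mean over the 4 arrays was -0.23 on CLP_RAGhigh replicate 1 and 0.011 on CLP_RAGhigh replicate 2, against 0.18 and 0.018 on replicates 1 and 2 of CLP_RAGlow. The replicate 2 arrays of the groups therefore lay close together. CLP_RAGhigh replicate 1 held the lowest value of 56 of the 89 genes, where it held that of 32.9% of all genes, and CLP_RAGlow replicate 1 held the highest of 45, where it held that of 26.6% of all genes. Leaving out CLP_RAGhigh replicate 1 gave a median of -0.11 with 55 genes lower, and leaving out CLP_RAGlow replicate 1 gave -0.11 with 61 lower. Leaving out CLP_RAGhigh replicate 2 gave -0.33 and leaving out CLP_RAGlow replicate 2 gave -0.29, each with 77 lower. The difference stayed below 0 whichever array was left out for 44 of the 89 genes (49.4%, background 22.5%), 20 of them in complex I.

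**Figure D2:**
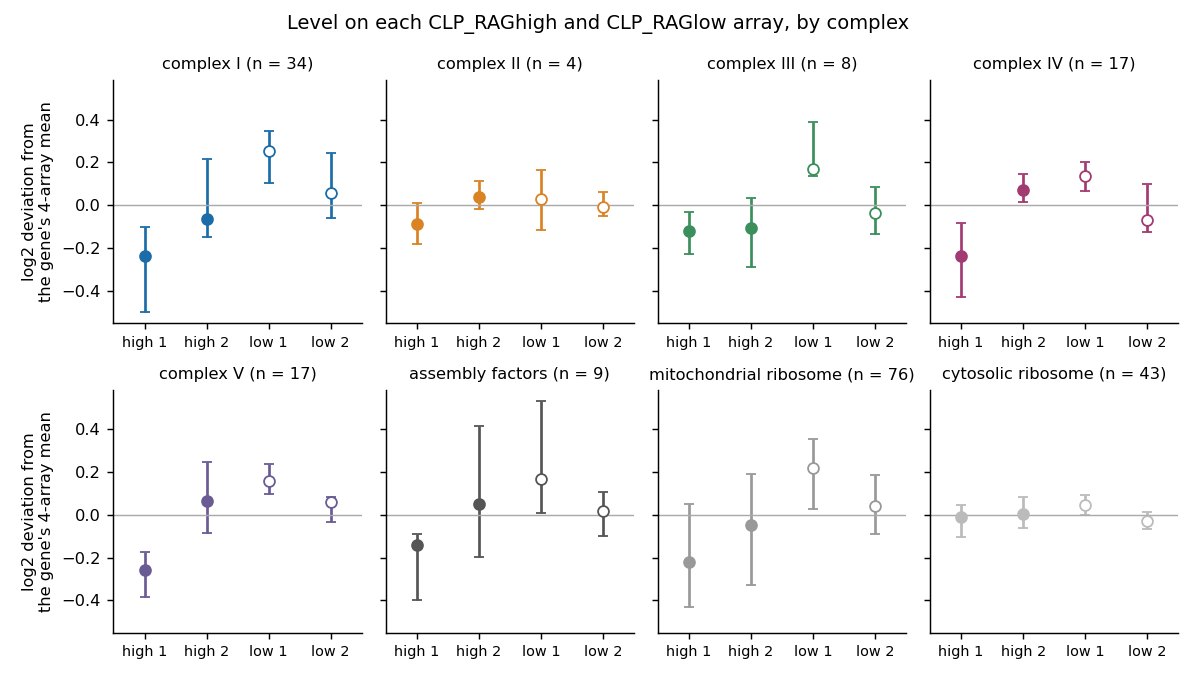
Deviation in log2 intensity from each gene's mean over the 4 arrays, by array, in a panel for each complex, the assembly and supercomplex factors and both ribosomes, with points at the medians over genes, bars over the quartiles, and filled points for CLP_RAGhigh, open ones for CLP_RAGlow. In complex I the medians are -0.24 and -0.064 on the CLP_RAGhigh arrays against 0.25 and 0.057 on the CLP_RAGlow arrays, and in the cytosolic ribosome all 4 lie near 0.

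Complex I, the NADH dehydrogenase, had a lower mean in CLP_RAGhigh cells for 33 of its 34 genes, with a median difference of -0.29, a fold of 0.818. Both CLP_RAGhigh arrays lay below both CLP_RAGlow arrays for 15 genes (44.1%, background 15.8%) and above them for 1 (2.94%, background 15.4%). Its median stayed between -0.41 and -0.22 whichever array was left out. By role, the 6 core subunits, which carry the flavin and iron-sulphur centres or line the path to ubiquinone, were all lower, with a median of -0.24 that ranged over -0.35 to -0.14 with 1 array left out. The 11 Ndufb subunits of the membrane arm had a median of -0.36 with 10 lower, and the other 17 accessory subunits had a median of -0.31 with all 17 lower, which was -0.17 without CLP_RAGhigh replicate 1.

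Among the core subunits, the groups of Ndufv1, which binds NADH and the flavin, did not overlap, with 10.24 and 10.42 in CLP_RAGhigh cells against 10.75 and 10.48 in CLP_RAGlow cells, a difference of -0.28 ± 0.19 (SE). Ndufs8, an iron-sulphur subunit, was at 10.91 and 11.03 in CLP_RAGhigh cells against 11.20 and 11.28 in CLP_RAGlow cells, and again did not overlap, with a difference of -0.27 that was -0.053 without _x_at, _s_at and _a_at sets. Ndufs1, the largest iron-sulphur subunit, did overlap, at 8.56 and 7.17 in CLP_RAGhigh cells against 8.38 and 7.70 in CLP_RAGlow cells, and its difference of -0.18 was 0.52 without CLP_RAGhigh replicate 2. These 3 genes were chosen for their roles after their values were seen.

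The smallest p of the set was that of Ndufa1, an X-linked accessory subunit needed for the assembly of complex I. It was at 10.98 and 11.09 in CLP_RAGhigh cells against 11.71 and 11.52 in CLP_RAGlow cells, a difference of -0.58 ± 0.14 (SE) with a limma p of 0.0070 and an adjusted p of 0.703. Both CLP_RAGhigh arrays were below both CLP_RAGlow arrays, and the gap exceeded the distance between replicates. Ndufa13, also known as GRIM-19, was at 11.27 and 11.69 in CLP_RAGhigh cells against 11.98 and 11.99 in CLP_RAGlow cells, a difference of -0.50 ± 0.17 (SE; limma adjusted p = 0.869). Here CLP_RAGhigh replicate 2 stood closer to the CLP_RAGlow arrays than CLP_RAGhigh replicate 1 did.

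The Ndufb subunits with the smallest p belong to the membrane arm. Ndufb8 was at 9.67 and 10.09 in CLP_RAGhigh cells against 10.74 and 10.33 in CLP_RAGlow cells, a difference of -0.66 ± 0.25 (SE; limma adjusted p = 0.928). Ndufb9 was at 10.12 and 10.80 in CLP_RAGhigh cells against 11.10 and 11.13 in CLP_RAGlow cells, a difference of -0.66 ± 0.25 (SE; limma adjusted p = 0.928), which was -0.38 with its probe sets averaged. The groups overlapped in neither gene, and CLP_RAGhigh replicate 1 was the lowest array in both.

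The difference was not shared by the whole of complex I. Ndufb11, a membrane arm subunit, was at 11.96 and 12.44 in CLP_RAGhigh cells against 12.23 and 12.19 in CLP_RAGlow cells, a difference of -0.01 ± 0.17 (SE), and Ndufc2 was at 11.68 and 12.06 in CLP_RAGhigh cells against 11.98 and 11.86 in CLP_RAGlow cells, a difference of -0.05 ± 0.16 (SE). In both, the CLP_RAGhigh arrays enclosed the CLP_RAGlow arrays. The small difference of Ndufc2 depended on the chosen probe set. The mean over all 4 of its sets gave -0.25, and leaving out _x_at, _s_at and _a_at sets gave -0.49. For Ndufb11 the same alternatives gave 0.14 and 0.45, away from the direction of the complex. Ndufb1, a small membrane arm subunit, was the 1 gene of the complex with a higher mean, at 4.83 and 5.68 in CLP_RAGhigh cells against 4.70 and 4.39 in CLP_RAGlow cells, a difference of 0.71 ± 0.40 (SE). These levels are low, and the difference was 0.36 after an offset of 32 was added to the linear values. Without CLP_RAGhigh replicate 2 it was 0.29. The chosen probe set of Ndufb4 was dim. Another probe set, annotated to Ndufb4, Ndufb4b and Ndufb4c together, was at 8.62 and 9.10 in CLP_RAGhigh cells against 9.44 and 9.40 in CLP_RAGlow cells, and it is not counted because it names several genes.

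Complex II, succinate dehydrogenase, which also serves the tricarboxylic acid cycle, had no common direction. Of its 4 genes, 2 were lower on average in CLP_RAGhigh cells and 2 were higher, all 4 overlapped between the groups, and the median difference was -0.017. Sdha, the flavoprotein, was at 10.43 and 10.43 in CLP_RAGhigh cells against 10.59 and 10.40 in CLP_RAGlow cells, a difference of -0.07 ± 0.18 (SE). Sdhb, the iron-sulphur subunit, was at 9.10 and 9.41 in CLP_RAGhigh cells against 9.18 and 9.28 in CLP_RAGlow cells, a difference of 0.03 ± 0.26 (SE). For both, the differences were smaller than the distance between the CLP_RAGlow replicates.

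The membrane anchors of complex II differed between the groups by less than replicates of a group did. Sdhc was at 6.30 and 6.71 in CLP_RAGhigh cells against 6.89 and 6.57 in CLP_RAGlow cells, a difference of -0.22 ± 0.38 (SE). Sdhd was at 7.74 and 7.59 in CLP_RAGhigh cells against 7.34 and 7.74 in CLP_RAGlow cells, a difference of 0.13 ± 0.35 (SE). With 4 genes and these errors, a shift of the size seen in complex I could not be told from no shift, and the difference between the complexes was not tested.

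**Figure D3:**
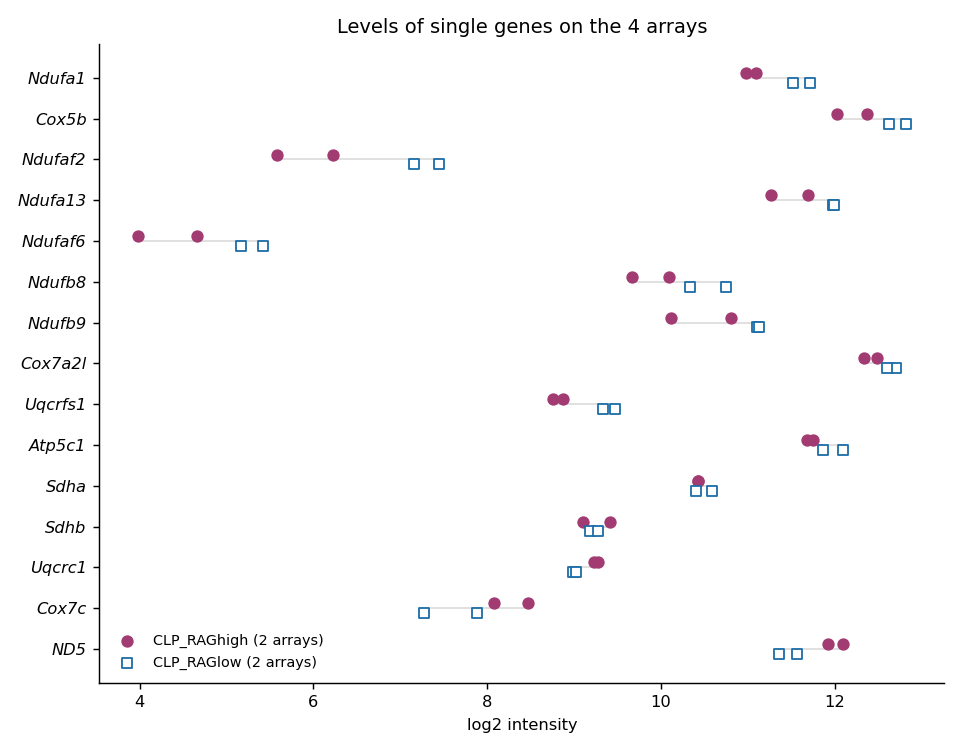
Log2 intensity (horizontal axis) on each array for the 8 genes with an unadjusted limma p under 0.05 and for Uqcrfs1, Atp5c1, Sdha, Sdhb, Uqcrc1, Cox7c and ND5, 1 row per gene, with filled circles for the CLP_RAGhigh arrays set above open squares for the CLP_RAGlow arrays. The groups overlap in Sdha and Sdhb, and CLP_RAGhigh lies to the right in Uqcrc1, Cox7c and ND5.

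Complex III, the cytochrome bc1 complex, had a lower mean in CLP_RAGhigh cells for 7 of 8 genes, with a median of -0.17, which was -0.022 without CLP_RAGlow replicate 1 and -0.30 without either replicate 2 array. Both CLP_RAGhigh arrays were below both CLP_RAGlow arrays for 4 of the 8 genes (background 15.8%) and above them for 1 of the 8 (background 15.4%). Uqcrfs1, the Rieske iron-sulphur protein, was at 8.88 and 8.76 in CLP_RAGhigh cells against 9.47 and 9.33 in CLP_RAGlow cells, a difference of -0.58 ± 0.25 (SE; limma adjusted p = 0.943). Its replicates were close in both groups, and its difference lay between -0.65 and -0.51 whichever array was left out.

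Uqcrb, which lies near a ubiquinone site, was at 12.31 and 12.54 in CLP_RAGhigh cells against 12.68 and 12.60 in CLP_RAGlow cells, a difference of -0.22 ± 0.11 (SE). Uqcrh, the hinge protein that contacts cytochrome c1, was at 8.53 and 8.34 in CLP_RAGhigh cells against 9.27 and 8.42 in CLP_RAGlow cells, a difference of -0.41 ± 0.37 (SE). Uqcrb did not overlap between the groups, whereas the difference in Uqcrh came from CLP_RAGlow replicate 1, and it was 0.015 without that array. The core proteins differed in sign. Uqcrc1 was at 9.28 and 9.23 in CLP_RAGhigh cells against 8.99 and 9.02 in CLP_RAGlow cells (0.25 ± 0.25, SE), and Uqcrc2 was at 11.20 and 10.69 in CLP_RAGhigh cells against 11.12 and 10.91 in CLP_RAGlow cells (-0.07 ± 0.22, SE). Uqcrc1 was wholly higher in CLP_RAGhigh cells and Uqcrc2 overlapped.

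Complex IV, cytochrome c oxidase, was mixed, with 11 of 17 genes lower and a median of -0.058, which was -0.011 without CLP_RAGhigh replicate 1, -0.29 without CLP_RAGhigh replicate 2, -0.022 without CLP_RAGlow replicate 1 and -0.16 without CLP_RAGlow replicate 2. The broadly expressed subunits and the isoforms known mainly from other tissues differed in their counts. Of the 10 broadly expressed subunits 8 had a lower mean, with a median of -0.28, and of the 7 isoforms of muscle, testis, lung and other tissues (Cox4i2, Cox6b2, Cox7a1, Cox7b2, Cox8b, Cox8c and Ndufa4l2) 3 had a lower mean, with a median of 0.044. The first median was -0.10 without CLP_RAGhigh replicate 1 and -0.16 without CLP_RAGlow replicate 1, and that of the isoforms was -0.15 without CLP_RAGhigh replicate 2 and -0.094 without CLP_RAGlow replicate 2. Of those 7 isoforms, 4 were dim, so their values say little about their transcripts.

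Cox5b, a nuclear subunit on the matrix side that binds zinc, was the gene of complex IV with the smallest p. It was at 12.03 and 12.37 in CLP_RAGhigh cells against 12.82 and 12.62 in CLP_RAGlow cells, a difference of -0.52 ± 0.14 (SE; limma adjusted p = 0.812). Cox5a, another nuclear subunit of the enzyme, was at 12.05 and 12.43 in CLP_RAGhigh cells against 12.29 and 12.26 in CLP_RAGlow cells, a difference of -0.03 ± 0.14 (SE). The groups did not overlap for Cox5b and did for Cox5a, and the difference between these genes was not tested.

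Among the other broadly expressed subunits, Cox6a1, whose promoter motif is printed above, was at 12.43 and 12.91 in CLP_RAGhigh cells against 13.06 and 13.05 in CLP_RAGlow cells, a difference of -0.38 ± 0.16 (SE). Cox7a2 was at 10.71 and 11.35 in CLP_RAGhigh cells against 11.46 and 11.52 in CLP_RAGlow cells, a difference of -0.46 ± 0.23 (SE). Cox6b1 was at 11.36 and 11.86 in CLP_RAGhigh cells against 12.00 and 11.95 in CLP_RAGlow cells, a difference of -0.36 ± 0.18 (SE). In these 3 genes CLP_RAGhigh replicate 1 stood well below the other arrays and CLP_RAGhigh replicate 2 just below the CLP_RAGlow arrays.

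Cox4i1, the common form of subunit 4, was at 11.67 and 11.90 in CLP_RAGhigh cells against 11.99 and 11.99 in CLP_RAGlow cells, a difference of -0.20 ± 0.12 (SE). Ndufa4, a subunit first assigned to complex I, was at 8.62 and 8.43 in CLP_RAGhigh cells against 9.12 and 8.63 in CLP_RAGlow cells, a difference of -0.35 ± 0.31 (SE). Cox6c was at 11.04 and 11.53 in CLP_RAGhigh cells against 11.40 and 11.16 in CLP_RAGlow cells, and its means were level. Cox8a had a difference of -0.17 ± 0.32 (SE) and overlapped. Cox7c was wholly higher in CLP_RAGhigh cells, at 8.47 and 8.07 against 7.89 and 7.27 in CLP_RAGlow cells, a difference of 0.69 ± 0.38 (SE). Its size depended on the probe set, with 1.26 for averaged probe sets and 1.83 without _x_at, _s_at and _a_at sets.

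Of the tissue isoforms, Cox7a1, the heart and muscle form of subunit 7a, was at 2.37 and 5.39 in CLP_RAGhigh cells against 2.91 and 3.41 in CLP_RAGlow cells, so that its higher mean (0.72 ± 0.93, SE) came from 1 array. Cox6b2, the testis form of subunit 6b, was at 3.19 and 3.06 in CLP_RAGhigh cells against 4.22 and 3.32 in CLP_RAGlow cells, a difference of -0.64 ± 0.34 (SE) that was -0.18 after an offset of 32 was added to the linear values. Both genes were dim. Cox4i2, Cox7b2, Cox8b, Cox8c and Ndufa4l2 had differences of 0.05, 0.04, -0.06, 0.12 and -0.06, and overlapped between the groups.

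Complex V, ATP synthase, had a lower mean in CLP_RAGhigh cells for 16 of 17 genes, with a median of -0.21. Both CLP_RAGhigh arrays were below both CLP_RAGlow arrays for 5 genes (29.4%, background 15.8%) and above them for 0 (background 15.4%). Its median was -0.058 without CLP_RAGhigh replicate 1 and -0.36 without CLP_RAGhigh replicate 2, and it was -0.12 without _x_at, _s_at and _a_at probe sets and -0.14 with probe sets averaged. The 4 subunits of the peripheral stalk, which holds the catalytic head still, had a median of -0.23 and the 5 of the membrane part had a median of -0.25, all lower. With 1 array left out, the stalk median ranged over -0.37 to -0.18, and that of the membrane part was -0.089 without CLP_RAGhigh replicate 1 and -0.60 without CLP_RAGhigh replicate 2.

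In the catalytic head, Atp5c1, the gamma subunit of the rotating stalk, was at 11.68 and 11.75 in CLP_RAGhigh cells against 11.87 and 12.10 in CLP_RAGlow cells, a difference of -0.27 ± 0.13 (SE). Atp5a1, the alpha subunit, was at 12.23 and 11.69 in CLP_RAGhigh cells against 12.15 and 12.16 in CLP_RAGlow cells (-0.19 ± 0.19, SE). Atp5b, the catalytic beta subunit, was the 1 gene of the complex with a higher mean, at 11.26 and 10.85 in CLP_RAGhigh cells against 10.65 and 10.99 in CLP_RAGlow cells (0.24 ± 0.21, SE). Atp5c1 did not overlap between the groups, and Atp5a1 and Atp5b did. Atp5c1 had a difference of 0.19 when probe sets ending in _x_at, _s_at or _a_at were left out.

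In the peripheral stalk, Atp5h was at 11.42 and 11.55 in CLP_RAGhigh cells against 11.79 and 11.67 in CLP_RAGlow cells (-0.24 ± 0.12, SE), and Atp5j, coupling factor 6, was at 10.17 and 10.36 in CLP_RAGhigh cells against 10.54 and 10.65 in CLP_RAGlow cells (-0.33 ± 0.18, SE). Neither overlapped between the groups; their ETS and YY1 motifs are printed above. Atp5j2, of the membrane part, was at 11.10 and 11.55 in CLP_RAGhigh cells against 11.75 and 11.53 in CLP_RAGlow cells (-0.32 ± 0.19, SE) and overlapped, with a difference of 0.33 without _x_at, _s_at and _a_at sets and 0.023 with its probe sets averaged. Atp5g1, Atp5g2 and Atp5g3, which encode the same mature c subunit of the rotor ring, had differences of -0.05, -0.04 and -0.11, and all overlapped.

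The 9 assembly and supercomplex factors had no common direction, with 6 lower and 3 higher and a median of -0.098 that ranged over -0.35 to -0.064 with 1 array left out, but held the largest difference of the set. Ndufaf2, a factor bound to a late intermediate of complex I, was at 5.58 and 6.22 in CLP_RAGhigh cells against 7.44 and 7.16 in CLP_RAGlow cells, a difference of -1.40 ± 0.40 (SE), a fold of 0.378 (limma adjusted p = 0.812). Ndufaf6, needed for the early steps of complex I assembly, was at 4.66 and 3.98 in CLP_RAGhigh cells against 5.42 and 5.16 in CLP_RAGlow cells, a difference of -0.97 ± 0.36 (SE; limma adjusted p = 0.923) that was -0.45 after an offset of 32. Neither overlapped. Cox7a2l, a factor of respiratory supercomplexes, was at 12.49 and 12.33 in CLP_RAGhigh cells against 12.70 and 12.60 in CLP_RAGlow cells, a difference of -0.24 ± 0.10 (SE; limma adjusted p = 0.928). The other complex I assembly factors lay between -0.32 and 0.40, and all overlapped.

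The mitochondrial ribosome, which translates the subunits encoded in mitochondrial DNA, showed a like shift, and the cytosolic ribosome did not. Of 76 mitochondrial ribosomal genes 58 had a lower mean in CLP_RAGhigh cells, with a median of -0.22, and 32 were wholly below (42.1%, background 15.8%) and 8 wholly above (10.5%, background 15.4%). Its array medians were -0.22 and -0.049 on the CLP_RAGhigh arrays against 0.22 and 0.042 on the CLP_RAGlow arrays, the order of the chain. Of 43 cytosolic ribosomal genes 24 had a lower mean, with a median of -0.0055, and 7 were wholly below (16.3%) and 5 wholly above (11.6%). Limma called 0 genes of either list, and the difference between the lists was not tested.

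**Figure D4:**
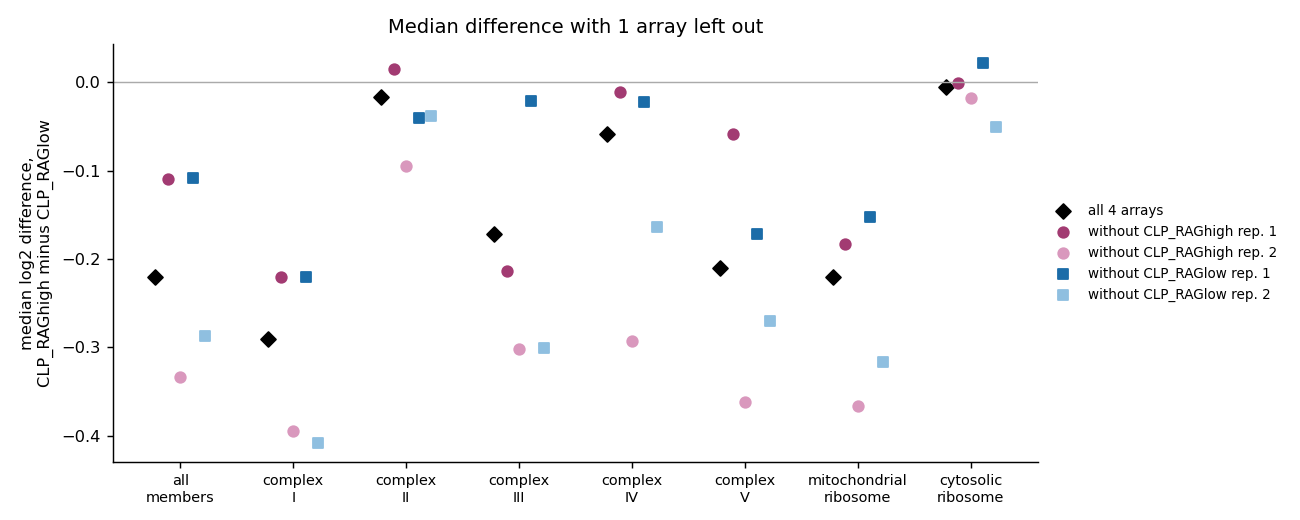
Median difference in log2 intensity, CLP_RAGhigh minus CLP_RAGlow, of each complex and comparison list with all 4 arrays and with each array left out. The medians of all members, of complexes I, III, IV and V and of the mitochondrial ribosome stay below 0, those of complexes III and IV reaching -0.022 and -0.011. The medians of complex II and of the cytosolic ribosome lie on both sides of 0.

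Other lists of mitochondrial genes had smaller medians. Of 12 measured tricarboxylic acid cycle genes 9 had a lower mean, with a median of -0.12 that ranged over -0.19 to 0.058 with 1 array left out, the highest without CLP_RAGhigh replicate 2. Of 42 electron carriers and assembly factors outside the naming rule 26 had a lower mean, with a median of -0.088. Coa3, an assembly factor of complex IV in that list, was at 7.42 and 7.18 in CLP_RAGhigh cells against 8.80 and 8.52 in CLP_RAGlow cells, a difference of -1.36 ± 0.33 (SE), and was chosen after its values were seen. Cyc1, cytochrome c1 of complex III, which the naming rule does not catch, was at 11.17 and 11.19 in CLP_RAGhigh cells against 11.30 and 11.38 in CLP_RAGlow cells.

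The 1 measured subunit gene of mitochondrial DNA had a higher mean in CLP_RAGhigh cells. ND5, a core subunit of complex I, was at 12.10 and 11.92 in CLP_RAGhigh cells against 11.35 and 11.56 in CLP_RAGlow cells, a difference of 0.55 ± 0.13 (SE; limma adjusted p = 0.703). The groups did not overlap. Of 13 listed regulators of mitochondrial genes 5 had a lower mean, with a median of 0.11. Their differences ran from -0.50 ± 0.40 (SE) for Tfb1m to 0.89 ± 0.37 (SE) for Tfb2m. Nrf1, Tfam, Gabpa and Yy1 had differences of 0.11, 0.15, 0.21 and -0.17, and Myc, a growth regulator, was at 9.60 and 9.17 in CLP_RAGhigh cells against 8.54 and 9.02 in CLP_RAGlow cells.

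Several measures of the samples moved with these groups or arrays. Rag1 was at 10.92 and 10.62 in CLP_RAGhigh cells against 7.72 and 8.53 in CLP_RAGlow cells, in the order of the labels, and 9 of 9 measured lymphoid progenitor genes were above the dim level. Of 17 cell cycle genes used in G2 and mitosis, 14 had a lower mean in CLP_RAGhigh cells, with a median of -1.11, which was -0.18 without CLP_RAGhigh replicate 1, and array medians of -0.83 and 0.091 in CLP_RAGhigh cells against 0.078 and 0.82 in CLP_RAGlow cells. Immediate early genes had array medians of 1.15 and -0.65 in CLP_RAGhigh cells against -0.24 and -0.52 in CLP_RAGlow cells, so that CLP_RAGhigh replicate 1, the lowest array for the chain, was the highest for these 9 genes. The ratio of 3′ to 5′ Actb probe sets was 16.2 and 9.62 in CLP_RAGhigh cells against 13.5 and 24.5 in CLP_RAGlow cells. For Gapdh it was 15.7 and 10.6 in CLP_RAGhigh cells against 14 and 20 in CLP_RAGlow cells. The array medians of the chain were -0.23 and 0.011 in CLP_RAGhigh cells against 0.18 and 0.018 in CLP_RAGlow cells. Within each group the chain was lower on the array with the higher ratios. Across the groups the order differed, as the highest ratios were in CLP_RAGlow cells and the lowest chain median in CLP_RAGhigh cells.

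Summed linear intensities of marker lists for other cells were 2763 and 2648 in CLP_RAGhigh cells against 422 and 466 in CLP_RAGlow cells for 7 B lineage genes (1 dim), and 3192 and 4401 in CLP_RAGhigh cells against 4877 and 6126 in CLP_RAGlow cells for 7 plasmacytoid dendritic genes (0 dim). They were 4188 and 4408 in CLP_RAGhigh cells against 6091 and 3193 in CLP_RAGlow cells for 10 granulocyte and monocyte genes, and 778 and 304 in CLP_RAGhigh cells against 501 and 359 in CLP_RAGlow cells for 6 erythroid genes. The 7 T and NK genes summed to 969 and 952 in CLP_RAGhigh cells against 738 and 870 in CLP_RAGlow cells (2 dim), and 5 of 6 stromal genes were dim. The plasmacytoid dendritic list includes Cox6a2, which the naming rule left out of the set. Cox6a2 was at 7.99 and 9.17 in CLP_RAGhigh cells against 9.56 and 9.73 in CLP_RAGlow cells. The summed B lineage, plasmacytoid dendritic, and T and NK lists did not overlap between the groups, but such sums are carried by their brightest genes. By gene, 6 of 7 B lineage genes had a higher mean in CLP_RAGhigh cells, 6 of 7 plasmacytoid dendritic genes a lower one. Siglech of the latter list was higher, at 5.10 and 5.25 against 4.98 and 4.76 in CLP_RAGlow cells. Of the T and NK genes 4 were higher and 3 lower, and Nkg7 was the brightest. The granulocyte list was highest on CLP_RAGlow replicate 1, where the chain was highest too. It was lowest on CLP_RAGlow replicate 2, whereas the chain was lowest on CLP_RAGhigh replicate 1. The part of these lists, of the cell cycle genes and of RNA quality in the difference was not tested. In RNA from sorted cells in bulk, fewer cells of a type and less RNA of a gene per cell cannot be told apart.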

How the data were processed

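RNA of 2000 sorted cells per sample was measured on 4 Affymetrix MOE430_2 arrays, in 2 groups of 2 named in the titles. The deposited values are intensities per probe set that the authors computed with RMA, per the labels' series design; the software is not given in the sources used here, nor is a genome build. The intensities ran from 2.35 to 19893, and were read as linear and transformed to log2. Of 45101 rows, 64 control sets were left out, and of the rest only the 34945 that the platform annotation gives a single gene were used, not the 932 with several or the 9160 without any. Of the probe sets with several genes, 10 name a gene of the set.

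Differences were fitted with limma 3.58.1 in R 4.3.3 (lmFit, eBayes with trend; 2 residual and 3.75 prior degrees of freedom) over 18193 genes, with two-sided p-values adjusted by Benjamini-Hochberg across them and a threshold of 0.05. The procedure was tested on simulated data. The genes, lists and tests were chosen with earlier results of these data known. Named with values are, in each complex, the 2 genes with the highest mean and the 4 with the smallest p, all of complex II, the members of isoform families and 3 assembly factors; others are named for their direction, their role or a comparison. Alternatives were averaged probe sets, no _x_at, _s_at or _a_at sets, no dim genes, an offset of 32, and quantile and centred arrays. Others were eBayes without a trend, a replicate block and each array left out. Same-numbered arrays did not deviate together (correlation -0.025), so the replicate numbers were not taken to pair them.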

Additional observations from a re-analysis of the deposited data

How the results depend on the processing

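With 2 arrays per group, precision is limited by their number, and with 1 array left out the lone array is assumed to vary like the other group. No gene of the set passed the limma threshold under any alternative with all 4 arrays. An unadjusted limma p under 0.05 was reached by 8 genes of the set in the reported fit. Under those alternatives it was reached by 2 to 8, with 2 of 71 without _x_at, _s_at and _a_at sets and 4 with eBayes without a trend. With a replicate block the median of the set was -0.22 with 0 of its genes called; over all genes 7 were called with the block, 21 with centred arrays, 2 with averaged probe sets, 1 without dim genes and 0 in the reported fit. The median of the set was -0.20 with averaged probe sets, -0.19 with centred arrays, and -0.12 (52 of 71 genes lower) without _x_at, _s_at and _a_at sets; the same 71 genes with their reported probe sets had -0.22, an alternative chosen after seeing the data. Without _x_at, _s_at and _a_at sets the sign turned for Atp5c1 (0.19), Atp5g1 (0.071), Atp5j2 (0.33), Cox6c (-0.12) and Ndufb11 (0.45). With averaged probe sets it turned for Atp5g1 (0.0097), Atp5g2 (0.22), Atp5j2 (0.023), Cox6c (-0.057) and Ndufb11 (0.14), with quantile normalization for Cox6c (-0.0072) and Ndufb11 (0.014), and with centred arrays for Ndufb11 (0.016). With 1 array left out, 20 of 48 genes of the set given with values changed sign. Ranges for genes of complexes I to III were -0.25 to 0.23 for Ndufb11, -0.24 to 0.14 for Ndufc2, -0.87 to 0.52 for Ndufs1, -0.16 to 0.027 for Sdha, -0.12 to 0.18 for Sdhb, -0.077 to 0.33 for Sdhd, -0.32 to 0.19 for Uqcrc2 and -0.83 to 0.015 for Uqcrh. For complex IV they were -0.29 to 0.39 for Cox4i2, -0.22 to 0.15 for Cox5a, -0.24 to 0.25 for Cox6c, -0.79 to 2.23 for Cox7a1, -0.069 to 0.16 for Cox7b2, -0.15 to 0.034 for Cox8b, -0.0011 to 0.25 for Cox8c and -0.16 to 0.051 for Ndufa4l2. For complex V they were -0.46 to 0.080 for Atp5a1, -0.41 to 0.30 for Atp5g1, -0.33 to 0.26 for Atp5g2 and -0.26 to 0.046 for Atp5g3. The median of complex II ranged over -0.095 to 0.015, of complex III over -0.30 to -0.022 and of complex IV over -0.29 to -0.011. The cause of these changes was not tested.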
